A study of Mus musculus with 41 samples.

Results

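The proximal tubule solute carriers described here are 35 named genes of the SLC superfamily that take up or export sugars, organic acids, amino acids, sulfate, urate, bile acids, vitamin C and bicarbonate along the first segment of the nephron. The 35 genes were taken from a list of names that was chosen with earlier results of these data known. Each was found by its Ensembl identifier among the 48795 genes of the deposited count table. A further 256 Slc genes there, outside the mitochondrial Slc25 family, served for comparison. Of the 35 carriers, 34 passed the filter on low counts in each cohort of mice. Slc9a3, the apical sodium-proton exchanger NHE3, did not pass in the first cohort, and Slc6a12, a betaine and GABA transporter, did not pass in the second. They are accounted for with their levels below.

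Kidneys were taken from mice after unilateral ischemia-reperfusion injury (UIRI), in which the blood supply of 1 kidney is closed and reopened. The first cohort consisted of males of 8 to 10 weeks in 4 groups of 6 libraries. Control mice had no injury, and kidneys of UIRI d3 were collected at day 3. Those of UIRI d7 and UIRI+Nx d7 were collected at day 7, and in the latter the intact opposite kidney had been taken out at day 3 (nephrectomy, Nx). Ischemia of the left kidney had lasted 21 min at a body temperature of 34 °C, and the mice of UIRI d7 had a sham nephrectomy on day 3. The second cohort held no Control, 6 libraries each of UIRI d3 and UIRI d7, and 4 of UIRI+Nx d7. Its sex, age, ischemia time and day of nephrectomy, and the strain of the first cohort, were not stated in the labels. Sample names of the second cohort begin with WT. No label ties a library to a named animal, so p-values measure the spread between these libraries. Each library came from a frozen section of a kidney pole and holds all cell types of that section.

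The proximal tubule reclaims most of the filtered solute. In its brush border, sodium-coupled carriers draw sugars, amino acids and organic acids from the filtrate, and in the basolateral membrane other carriers pass them to the blood or take drugs and anions from it. The early convoluted part carries high-capacity transporters such as SGLT2 (Slc5a2) and B0AT1 (Slc6a19), and the straight part, which is the segment most sensitive to ischemia, carries high-affinity transporters such as SGLT1 (Slc5a1), EAAC1 (Slc1a1) and PEPT2 (Slc15a2). The 35 carriers were grouped by general knowledge into 7 early carriers, 8 straight carriers and 20 given no segment, and by the substrate they move.

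Total counts ran from 5090418 to 33362940 per library. Levels are given as CPM, which are counts scaled to the TMM-adjusted library size, and fold changes, standard errors (SE) and adjusted p are from the quasi-likelihood F test of edgeR over all genes, with a threshold of 0.05. Proximal tubule enzymes and receptors (17 genes) summed to 47109 to 74515 CPM in Control and to 5273 to 16322 CPM in UIRI d7 of the first cohort, so the defining transcripts of the labelled tissue were present in both. Mitochondrial genes took 6.21 to 10.6% of counts in Control and 2.27 to 5.66% across the 3 injured groups of the cohort. Markers of other cells moved with injury too, since 5 of 5 tubular injury genes and all 7 tested of 9 leukocyte genes were higher in UIRI d7 than in Control. Over all genes 21.5% were higher there. Summed leukocyte levels were 155 to 306 CPM in Control and 1237 to 3017 CPM in UIRI d7. The part of these shifts in the carrier results was not tested.

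After injury most of the carriers fell, and nearly none rose. On UIRI d3, 21 of the 34 tested carriers were lower than in Control and 0 were higher, where 14.9% of all 15701 genes tested were lower and 17.8% were higher. On UIRI d7, 25 were lower and 1, Slc7a12, was higher, against 18.1% and 21.5% of all genes. In UIRI+Nx d7, 21 were lower and 0 higher, against 14% and 17.3%. The median log2 fold change of the carriers was -0.93 on UIRI d3, -1.23 on UIRI d7 and -0.88 in UIRI+Nx d7, beside 0.00, 0.04 and 0.02 over all genes tested. These 3 comparisons share the Control libraries, so their values stand side by side and are not independent. The carriers were also chosen with earlier results of these data known, so the shares over all genes give scale and no test. In whole sections, fewer proximal tubule cells and less carrier RNA per cell cannot be told apart.

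The 0 higher carriers in these comparisons also held with DESeq2 on UIRI d3, whereas DESeq2 placed 1 carrier above Control in UIRI+Nx d7. Unadjusted p under 0.05 was reached, in either direction, by 26 carriers on UIRI d3, 28 on UIRI d7 and 23 in UIRI+Nx d7. Scaling by total counts alone raised the median of all genes to 0.26 on UIRI d3, 0.39 on UIRI d7 and 0.29 in UIRI+Nx d7, and then 17, 22 and 14 carriers were lower and 0, 1 and 2 higher than in Control. Over all genes that scaling gave 1344 lower and 4370 higher on UIRI d3, 1589 and 5740 on UIRI d7, and 1316 and 4295 in UIRI+Nx d7. Library blocks were read from the library numbers, since the labels name no batch, and are called 1a, 1b and 2b in the first cohort and 2a and 2c in the second. First-cohort UIRI d7 had 3 libraries in 1a, 3 in 1b and none in 2b, where Control had 2, UIRI d3 3 and UIRI+Nx d7 2. Group and block are thus partly confounded in the comparisons that use UIRI d7 of that cohort. Against Control, 20 carriers were lower on UIRI d3 within block 1a and 17 within block 2b, 20 were lower on UIRI d7 within block 1a, and 17 and 3 were lower in UIRI+Nx d7 within blocks 1a and 2b, with 2 or 3 libraries of a group in each. Other Slc genes were split, with 71 of 190 tested lower and 35 higher on UIRI d7 and a median of -0.34. A second list of 26 proximal tubule carriers outside the 35, with the organic anion and cation transporters, held 21 lower and 0 higher on UIRI d7, with a median of -1.87. Apart from Slc51b, Slco1a1 and Slco1a6, the genes of this list are also counted among the other Slc genes, so these sets overlap. Among 8 partner proteins of the carriers, 5 were lower and 0 higher on UIRI d7, where 18.1% and 21.5% of all genes were. The partners include Cltrn, the collectrin that brings B0AT carriers to the brush border, at a log2 fold change of -1.59 (SE 0.26, adjusted p = 1.67e-05). Another is Pdzk1, the brush border scaffold, at -1.34 (SE 0.19, adjusted p = 2.29e-06).

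**Figure D1:**
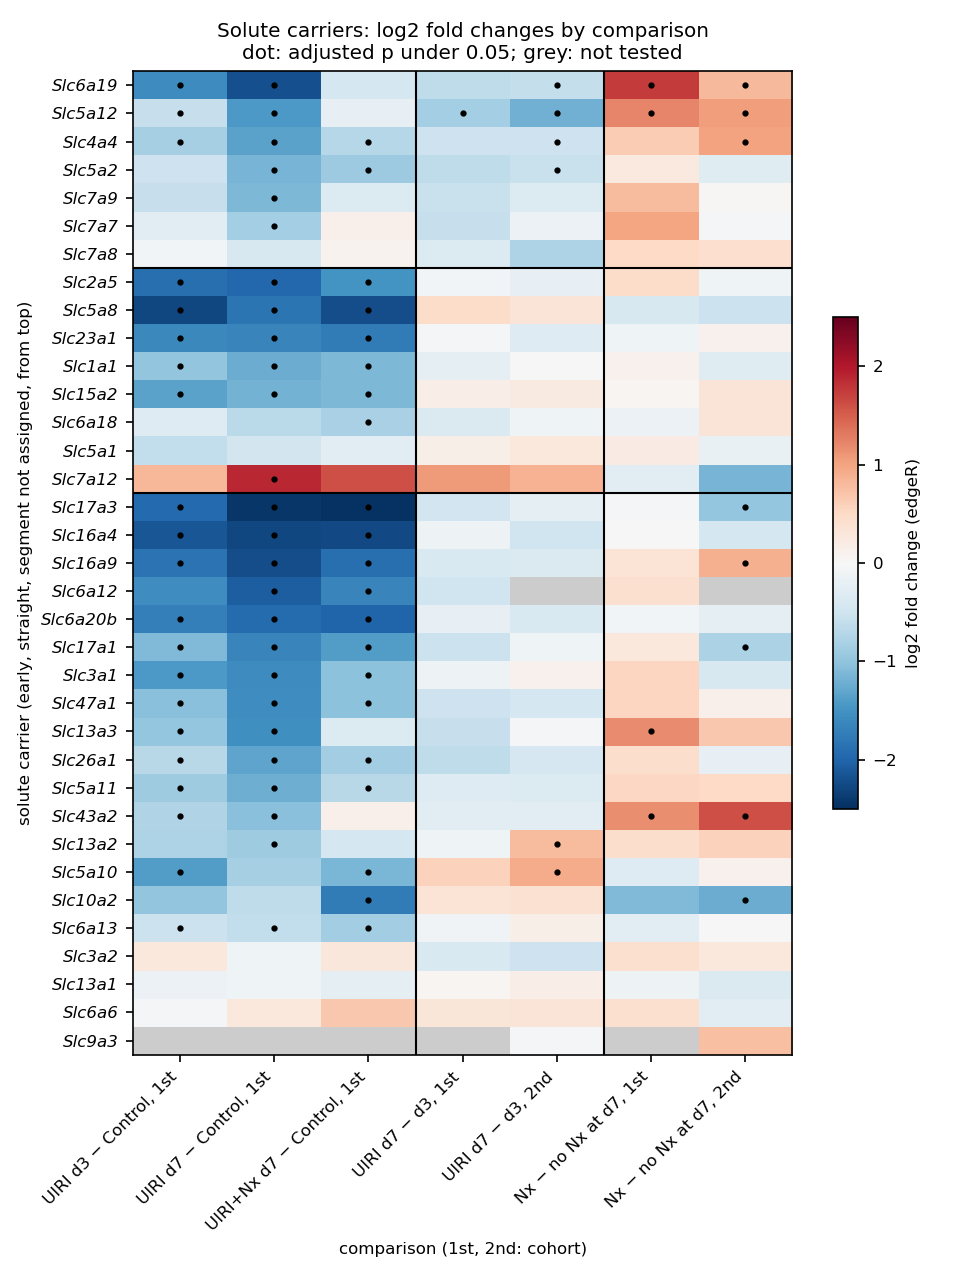
Log2 fold changes from edgeR of the 35 carriers (rows) in comparisons of both cohorts, with those that passed an adjusted p of 0.05 marked. Rows are grouped by tubule segment, as early, straight and not assigned from the top. The injured groups stand below Control for most carriers, 25 of 34 tested on UIRI d7, while the nephrectomy comparisons hold few marked values.

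Of the 5 carriers of sugars and inositol, 3 fell on UIRI d3, 3 on UIRI d7 and 4 in UIRI+Nx d7. Over all genes 14.9%, 18.1% and 14% were lower. Slc2a5, the fructose transporter GLUT5 (ENSMUSG00000028976, chr4:150119283-150144169, plus strand of GRCm38, as are all positions here), measured 194 to 373 CPM in Control (median 233) and 56.9 to 77.6 in UIRI d3 (median 68.5). On day 7 it measured 41.2 to 106 CPM in UIRI d7 (median 52.3) and 53.7 to 169 in UIRI+Nx d7 (median 78.0). No injured library reached the lowest Control value, and the log2 fold change was -1.88 (SE 0.26, adjusted p = 2.45e-06) on UIRI d3, -1.96 (SE 0.26, adjusted p = 1.03e-06) on UIRI d7 and -1.49 (SE 0.26, adjusted p = 5.24e-05) in UIRI+Nx d7. Slc5a2, which is SGLT2, the bulk glucose carrier of the early tubule (ENSMUSG00000030781, chr7:128265657-128272430, plus strand), measured 221 to 405 CPM in Control (median 298) and 146 to 297 in UIRI d3 (median 204). The day 7 groups measured 90 to 186 CPM in UIRI d7 (median 152) and 72.8 to 260.1 in UIRI+Nx d7 (median 147). Its loss had not passed the test on UIRI d3 at -0.51 (SE 0.25, adjusted p = 0.12) and had on UIRI d7 at -1.16 (SE 0.25, adjusted p = 0.000579) and in UIRI+Nx d7 at -0.91 (SE 0.25, adjusted p = 0.00628), where the value was -0.64 with an adjusted p of 0.0513 with total counts as the scale. Slc5a1, which is SGLT1, the glucose and galactose carrier of the straight tubule (ENSMUSG00000011034, chr5:33104219-33162870, plus strand), measured 39.3 to 134 CPM in Control (median 93.1) and 27.5 to 73.0 in UIRI d3 (median 61.8). Levels on day 7 were 12.2 to 86.2 CPM in UIRI d7 (median 70.5) and 24.0 to 173 in UIRI+Nx d7 (median 60.2). The groups overlapped throughout, and Slc5a1 gave -0.61 (SE 0.40, adjusted p = 0.259) on UIRI d3, -0.47 (SE 0.40, adjusted p = 0.377) on UIRI d7 and -0.27 (SE 0.40, adjusted p = 0.656) in UIRI+Nx d7. The 95% interval of its UIRI d7 value, -1.25 to 0.31, spans both a fall of over 1 and no change.

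Slc5a11, a sodium-coupled inositol carrier, was lower on UIRI d3 at -0.90 (SE 0.24, adjusted p = 0.00413), on UIRI d7 at -1.22 (SE 0.24, adjusted p = 0.000168) and in UIRI+Nx d7 at -0.70 (SE 0.24, adjusted p = 0.0246). The last call held in 9 of 12 fits with 1 library left out and was lost without UIRI+Nx d7 replicates 3 or 4, or Control replicate 5 (adjusted p up to 0.0838). With total counts as the scale it was -0.42 with an adjusted p of 0.141. Slc5a10, a sodium-coupled mannose and fructose carrier, measured 152 to 214 CPM in Control (median 164) and 39.9 to 155 in UIRI d3 (median 51.5). By day 7 it measured 58.2 to 213 CPM in UIRI d7 (median 75.6) and 26.2 to 135 in UIRI+Nx d7 (median 74.6). It was lower on UIRI d3 at -1.40 (SE 0.36, adjusted p = 0.00343) and in UIRI+Nx d7 at -1.14 (SE 0.36, adjusted p = 0.0153), which became -0.88 with an adjusted p of 0.0522 with total counts as the scale, and its UIRI d7 value was -0.82 (SE 0.36, adjusted p = 0.0685). Slc5a2 and Slc5a10 each share their last 500 bases with an exon of a gene on the other strand, BC017158 and Grap, and whether the counting used strand is not stated, so their reads cannot be told apart from those of these partners. The same holds for Slc6a20b (Sacm1l), Slc7a7 (Oxa1l), Slc3a1 (Prepl), Slc16a9 (Gm9877) and Slc26a1 (Idua).

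All 4 monocarboxylate carriers fell on UIRI d3 and on UIRI d7, and 3 of the 4 in UIRI+Nx d7. Of all genes, 14.9%, 18.1% and 14% were lower in the same comparisons. Slc5a8, a sodium-coupled lactate and butyrate carrier of the straight tubule (ENSMUSG00000020062, chr10:88885992-88929515, plus strand), measured 95.4 to 248 CPM in Control (median 167) and 16.7 to 54.8 in UIRI d3 (median 32.4). Day 7 levels were 24.6 to 63.0 CPM in UIRI d7 (median 48.6) and 15.0 to 80.3 in UIRI+Nx d7 (median 32.8). Every injured library of the first cohort lay below every Control library, and the log2 fold change was -2.27 (SE 0.35, adjusted p = 1.19e-05) on UIRI d3, -1.82 (SE 0.35, adjusted p = 0.00012) on UIRI d7 and -2.22 (SE 0.35, adjusted p = 1.77e-05) in UIRI+Nx d7. Slc16a9, a monocarboxylate and carnitine transporter (ENSMUSG00000037762, chr10:70245100-70285968, plus strand), measured 74.4 to 115 CPM in Control (median 85.0) and 16.7 to 31.6 in UIRI d3 (median 26.0). At day 7 levels were 15.9 to 27.7 CPM in UIRI d7 (median 17.4) and 22.1 to 28.1 in UIRI+Nx d7 (median 24.4). It had the smallest adjusted p among the carriers in all 3 comparisons with Control, at -1.84 (SE 0.18, adjusted p = 7.62e-09), -2.23 (SE 0.18, adjusted p = 3.7e-10) and -1.89 (SE 0.18, adjusted p = 6.42e-09), with no overlap between any injured group and Control. Slc16a4, an orphan of the monocarboxylate transporter family, measured 12.3 to 37.3 CPM in Control (median 29.7) and 4.12 to 9.43 in UIRI d3 (median 4.97). On day 7 it measured 2.64 to 8.66 CPM in UIRI d7 (median 5.14) and 2.16 to 12.3 in UIRI+Nx d7 (median 4.5). It fell in all 3, with log2 fold changes of -2.14 on UIRI d3, -2.27 on UIRI d7 and -2.25 in UIRI+Nx d7. Slc5a12, the low-affinity lactate carrier of the early tubule (ENSMUSG00000041644, chr2:110597298-110647779, plus strand), measured 91.6 to 147 CPM in Control (median 118) and 56.4 to 115 in UIRI d3 (median 72.4). The day 7 groups measured 33.0 to 57.6 CPM in UIRI d7 (median 45.8) and 82.2 to 149 in UIRI+Nx d7 (median 95.5). It was lower on UIRI d3 at -0.58 (SE 0.20, adjusted p = 0.0245) and on UIRI d7 at -1.43 (SE 0.20, adjusted p = 2.03e-06), whereas UIRI+Nx d7 overlapped Control at -0.20 (SE 0.19, adjusted p = 0.492). The UIRI d3 call held in 8 of 12 fits with 1 library left out and was lost without Control replicate 2, or UIRI d3 replicates 4, 5 or 6 (adjusted p up to 0.0681). It became -0.33 with an adjusted p of 0.221 with total counts as the scale.

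The sodium-coupled neutral amino acid carriers parted by gene. Slc6a19, which is B0AT1, the main neutral amino acid carrier of the early brush border (ENSMUSG00000021565, chr13:73679745-73704865, minus strand), measured 306 to 563 CPM in Control (median 424) and 123 to 190.0 in UIRI d3 (median 137). Levels on day 7 were 52.1 to 161 CPM in UIRI d7 (median 80.5) and 148 to 595 in UIRI+Nx d7 (median 299). UIRI d3 and UIRI d7 lay wholly below Control while UIRI+Nx d7 reached into it, with log2 fold changes of -1.57 (SE 0.31, adjusted p = 0.000262), -2.20 (SE 0.32, adjusted p = 3.29e-06) and -0.44 (SE 0.30, adjusted p = 0.297). The UIRI d7 mean was 21.8% of the Control mean and the UIRI+Nx d7 mean 73.6%. Slc6a18, which is XT2, a glycine carrier of the later tubule and the neighbour of Slc6a19 on the same strand (ENSMUSG00000021612, chr13:73661752-73678023, minus strand), measured 364 to 1039 CPM in Control (median 566) and 287 to 748 in UIRI d3 (median 486). By day 7 it measured 202 to 566 CPM in UIRI d7 (median 327) and 264 to 499.6 in UIRI+Nx d7 (median 323). Its log2 fold change was -0.32 (SE 0.28, adjusted p = 0.408) on UIRI d3, -0.68 (SE 0.28, adjusted p = 0.0518) on UIRI d7 and -0.82 (SE 0.28, adjusted p = 0.0246) in UIRI+Nx d7, with overlapping groups. The last held in 9 of 12 fits with 1 library left out and was lost without UIRI+Nx d7 replicates 1 or 2, or Control replicate 5 (adjusted p up to 0.105). It was -0.54 with an adjusted p of 0.093 with total counts as the scale. Slc6a20b, an imino acid carrier, fell in all 3, with log2 fold changes of -1.71 on UIRI d3, -1.93 on UIRI d7 and -2.0 in UIRI+Nx d7, but reads of its close paralog Slc6a20a may be split between them.

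Of the heteromeric and facilitative amino acid carriers, 2 of 7 fell on UIRI d3, 4 of 7 on UIRI d7 and 1 of 7 in UIRI+Nx d7. The shares of all genes that were lower were 14.9%, 18.1% and 14%. Slc3a1, the heavy chain rBAT of the apical cystine exchanger (ENSMUSG00000024131, chr17:85028376-85064236, plus strand), measured 149 to 418 CPM in Control (median 281) and 52.2 to 183 in UIRI d3 (median 84.7). Day 7 levels were 36.3 to 148 CPM in UIRI d7 (median 82.6) and 77.2 to 229 in UIRI+Nx d7 (median 123). It was lower at -1.43 (SE 0.34, adjusted p = 0.00185) on UIRI d3, -1.56 (SE 0.34, adjusted p = 0.000608) on UIRI d7 and -1.02 (SE 0.34, adjusted p = 0.0222) in UIRI+Nx d7. The last held in 9 of 12 fits with 1 library left out and was lost without UIRI+Nx d7 replicates 3 or 6, or Control replicate 1 (adjusted p up to 0.0623), and was -0.77 with an adjusted p of 0.0986 with total counts as the scale. Slc7a9, the light chain that pairs with rBAT, measured 74.4 to 139 CPM in Control (median 102) and 42.6 to 101 in UIRI d3 (median 72.8). At day 7 levels were 27.5 to 74.3 CPM in UIRI d7 (median 45.5) and 54.6 to 132 in UIRI+Nx d7 (median 74.6). Its fall passed on UIRI d7 alone, at -1.12 (SE 0.26, adjusted p = 0.00111), beside -0.57 (SE 0.26, adjusted p = 0.0936) on UIRI d3 and -0.34 (SE 0.26, adjusted p = 0.356) in UIRI+Nx d7. Slc7a7, the light chain y+LAT1, measured 69.1 to 123 CPM in Control (median 105) and 47.1 to 128 in UIRI d3 (median 81.9). On day 7 it measured 23.1 to 107 CPM in UIRI d7 (median 48.8) and 56.2 to 176 in UIRI+Nx d7 (median 112). Its UIRI d7 fall of -0.85 (SE 0.32, adjusted p = 0.0356) held in 5 of 12 fits with 1 library left out and was lost without UIRI d7 replicates 1, 2, 3 or 4, or Control replicates 1, 5 or 6 (adjusted p up to 0.0879). It was also -0.82 with an adjusted p of 0.0512 in a fit of the 2 groups alone and -0.46 with an adjusted p of 0.258 with total counts as the scale. Slc7a8, the light chain LAT2, ranged from 4.71 to 368 CPM within UIRI d7 and gave -0.41 (SE 0.58, adjusted p = 0.612) there, with the widest SE of the early carriers, beside -0.06 on UIRI d3 and 0.08 in UIRI+Nx d7, which did not pass either. Slc3a2, the heavy chain 4F2hc that both pair with, gave 0.27 (SE 0.37, adjusted p = 0.632), -0.11 (SE 0.37, adjusted p = 0.835) and 0.29 (SE 0.37, adjusted p = 0.614), so 0 of its comparisons with Control passed and its 95% interval on UIRI d7 was -0.84 to 0.61.

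Slc43a2, which is LAT4, a basolateral exit path for neutral amino acids (ENSMUSG00000038178, chr11:75531694-75577575, plus strand), measured 113 to 275 CPM in Control (median 160.4) and 77.9 to 112 in UIRI d3 (median 105). The day 7 groups measured 53.2 to 113 CPM in UIRI d7 (median 81.3) and 87.1 to 245 in UIRI+Nx d7 (median 201). It was lower on UIRI d3 at -0.75 (SE 0.24, adjusted p = 0.0175) and on UIRI d7 at -1.04 (SE 0.24, adjusted p = 0.00115), and UIRI+Nx d7 overlapped Control at 0.12 (SE 0.24, adjusted p = 0.756). The UIRI d3 call was lost without Control replicate 5, at an adjusted p of 0.0716, and was -0.48 with an adjusted p of 0.0946 with total counts as the scale. Slc7a12, an amino acid transporter also called Asc-2 and counted among the straight carriers, was the carrier that rose. It measured 0.346 to 2.5 CPM in Control (median 0.956) and 0.990 to 3.91 in UIRI d3 (median 1.83). Levels on day 7 were 1.38 to 7.86 CPM in UIRI d7 (median 3.69) and 0.333 to 11.6 in UIRI+Nx d7 (median 2.35). The log2 fold change on UIRI d7 was 1.88 (SE 0.65, adjusted p = 0.0232), beside 0.82 (SE 0.65, adjusted p = 0.367) on UIRI d3 and 1.62 (SE 0.65, adjusted p = 0.0598) in UIRI+Nx d7. The call rests on levels of a few CPM and held in 7 of 12 fits with 1 library left out and was lost without UIRI d7 replicates 1 or 6, or Control replicates 2, 3 or 4 (adjusted p up to 0.0566). The gene is not tested where at least 5 CPM are required.

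The straight carriers of acidic amino acids, peptides and vitamin C fell in every comparison with Control. Slc1a1, which is EAAC1, the glutamate and aspartate carrier, measured 152 to 209.8 CPM in Control (median 174) and 67.8 to 113 in UIRI d3 (median 91.9). By day 7 it measured 51.3 to 95 CPM in UIRI d7 (median 77.4) and 61.1 to 109.5 in UIRI+Nx d7 (median 79.6). No injured group overlapped Control, and the log2 fold change was -0.98 (SE 0.17, adjusted p = 7.01e-05) on UIRI d3, -1.23 (SE 0.18, adjusted p = 2.63e-06) on UIRI d7 and -1.12 (SE 0.18, adjusted p = 1.51e-05) in UIRI+Nx d7. Slc15a2, which is PEPT2, the carrier of di- and tripeptides, measured 46.2 to 103 CPM in Control (median 68.4) and 13.8 to 36.3 in UIRI d3 (median 29.5). Day 7 levels were 17.8 to 50.6 CPM in UIRI d7 (median 26.6) and 18.5 to 49.8 in UIRI+Nx d7 (median 32.4). The log2 fold changes were -1.35 on UIRI d3, -1.18 on UIRI d7 and -1.13 in UIRI+Nx d7. Slc23a1, the sodium-coupled vitamin C carrier SVCT1, measured 114 to 304 CPM in Control (median 154) and 44.5 to 68.9 in UIRI d3 (median 62.7). At day 7 levels were 39.1 to 92.9 CPM in UIRI d7 (median 52.1) and 32.4 to 108 in UIRI+Nx d7 (median 43.6). They correspond to log2 fold changes of -1.60 on UIRI d3, -1.65 on UIRI d7 and -1.75 in UIRI+Nx d7. For Slc23a1 the highest injured library stayed under the lowest Control library in all 3.

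The taurine, betaine and GABA carriers did not move together. Slc6a13, a GABA transporter of the basolateral membrane, measured 76.0 to 124 CPM in Control (median 104) and 60.3 to 86.7 in UIRI d3 (median 71.6). On day 7 it measured 43.1 to 81.4 CPM in UIRI d7 (median 76.8) and 42.7 to 70.3 in UIRI+Nx d7 (median 56.3). It was lower at -0.53 (SE 0.18, adjusted p = 0.0231) on UIRI d3, -0.62 (SE 0.18, adjusted p = 0.00685) on UIRI d7 and -0.88 (SE 0.18, adjusted p = 0.000388) in UIRI+Nx d7. With total counts as the scale the first was -0.27 with an adjusted p of 0.219 and the second -0.27 with an adjusted p of 0.193, and the UIRI d3 call held in 8 of 12 fits with 1 library left out and was lost without Control replicates 4 or 5, or UIRI d3 replicates 4 or 6 (adjusted p up to 0.0568). Slc6a6, the taurine transporter, gave -0.03 (SE 0.31, adjusted p = 0.952), 0.27 (SE 0.31, adjusted p = 0.529) and 0.67 (SE 0.31, adjusted p = 0.103), and none of these passed. Slc6a12, the neighbour of Slc6a13 on the same strand, measured 0.565 to 2.03 CPM in Control (median 1.03) and 0 to 0.899 in UIRI d3 (median 0.321). The day 7 groups measured 0 to 0.491 CPM in UIRI d7 (median 0.260) and 0 to 0.879 in UIRI+Nx d7 (median 0.234). It was lower on UIRI d7 at -2.06 (SE 0.65, adjusted p = 0.0124) and in UIRI+Nx d7 at -1.65 (SE 0.62, adjusted p = 0.0426). The latter call held in 3 of 12 fits with 1 library left out and was lost without UIRI+Nx d7 replicates 1, 2, 3, 4 or 6, or Control replicates 1, 3, 4 or 5 (adjusted p up to 0.129). It was -1.40 with an adjusted p of 0.0799 with total counts as the scale, -1.66 with an adjusted p of 0.0821 with no filter on low counts and -1.57 with an adjusted p of 0.0673 with the replicate numbers as a block, so it held under 3 of 6 other planned settings that tested it. Summed over libraries, Slc6a12 had 122 counts in Control, 28 in UIRI d3, 18 in UIRI d7 and 26 in UIRI+Nx d7. It stood near the low-count filter, with most of its reads in Control. Both calls thus give no support of their own, though they are among the 25 and 21 lower carriers counted above.

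Among carriers of sulfate and of di- and tricarboxylates, the apical sulfate carrier was the one that passed no comparison with Control. Slc13a1, which is NaS1, the sodium-sulfate carrier of the brush border (ENSMUSG00000029700, chr6:24088283-24168092, minus strand), measured 300.5 to 700.4 CPM in Control (median 460.4) and 344 to 492 in UIRI d3 (median 429.7). Levels on day 7 were 279 to 563 CPM in UIRI d7 (median 430.3) and 175 to 630.0 in UIRI+Nx d7 (median 421). Its groups overlapped in all comparisons, with log2 fold changes of -0.15 (SE 0.28, adjusted p = 0.729), -0.11 (SE 0.28, adjusted p = 0.784) and -0.24 (SE 0.28, adjusted p = 0.56) and a 95% interval on UIRI d7 of -0.65 to 0.43. Slc26a1, the basolateral sulfate and oxalate exchanger SAT1, measured 139.8 to 239 CPM in Control (median 179.7) and 71.2 to 135 in UIRI d3 (median 114). By day 7 it measured 49.7 to 98.5 CPM in UIRI d7 (median 69.9) and 73.7 to 125 in UIRI+Nx d7 (median 90.9). All its injured groups lay below Control, at -0.69 (SE 0.19, adjusted p = 0.00518), -1.32 (SE 0.19, adjusted p = 2.74e-06) and -0.88 (SE 0.19, adjusted p = 0.000606), the first being -0.41 with an adjusted p of 0.0762 with total counts as the scale. Slc13a3, which is NaDC3, the basolateral dicarboxylate carrier (ENSMUSG00000018459, chr2:165405028-165473230, minus strand), measured 479 to 876 CPM in Control (median 645) and 292 to 378 in UIRI d3 (median 337). Day 7 levels were 159 to 343 CPM in UIRI d7 (median 193) and 284 to 704 in UIRI+Nx d7 (median 562). UIRI d3 and UIRI d7 lay below Control, at -0.96 (SE 0.22, adjusted p = 0.00134) and -1.54 (SE 0.23, adjusted p = 4.18e-06), and UIRI+Nx d7 overlapped it at -0.35 (SE 0.22, adjusted p = 0.249). Slc13a2, which is NaDC1, the apical citrate and succinate carrier, passed on UIRI d7 alone at -0.88 (SE 0.35, adjusted p = 0.0485), and that call held in 4 of 12 fits with 1 library left out and was lost without UIRI d7 replicates 1, 2, 4 or 6, or Control replicates 2, 4, 5 or 6 (adjusted p up to 0.122). It also missed the threshold with total counts as the scale, at -0.52 with an adjusted p of 0.211, with no filter on low counts (-0.88 with an adjusted p of 0.0524) and with at least 5 CPM required (-0.87 with an adjusted p of 0.0507).

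The carriers of urate, drugs and bile acids held the largest fall of the 35 on UIRI d7. Slc17a3, a urate and organic anion transporter of the apical membrane (ENSMUSG00000036083, chr13:23839434-23860716, plus strand), measured 232 to 524 CPM in Control (median 380.1) and 73.7 to 164 in UIRI d3 (median 93.3). At day 7 levels were 42.2 to 115 CPM in UIRI d7 (median 70.3) and 19.2 to 176 in UIRI+Nx d7 (median 47.3). No injured library reached Control, and the log2 fold change was -1.93 (SE 0.43, adjusted p = 0.000959) on UIRI d3, -2.42 (SE 0.44, adjusted p = 7.22e-05) on UIRI d7 and -2.48 (SE 0.44, adjusted p = 8.26e-05) in UIRI+Nx d7, where the mean was 17.9% of Control. Slc17a1, or NPT1, which follows Slc17a3 on the same strand and also carries urate (ENSMUSG00000021335, chr13:23867750-23895730, plus strand), measured 434 to 806 CPM in Control (median 553) and 149 to 366 in UIRI d3 (median 281). On day 7 it measured 76.8 to 225 CPM in UIRI d7 (median 198) and 119 to 311 in UIRI+Nx d7 (median 241). Its values were -1.11 (SE 0.27, adjusted p = 0.00183), -1.65 (SE 0.27, adjusted p = 1.78e-05) and -1.39 (SE 0.27, adjusted p = 0.000196), again with no overlap. Slc47a1, which is MATE1, the proton-coupled exporter of organic cations, measured 742 to 1209 CPM in Control (median 860.5) and 332 to 540.3 in UIRI d3 (median 463). The day 7 groups measured 178 to 423 CPM in UIRI d7 (median 315) and 309 to 682 in UIRI+Nx d7 (median 391). All 3 comparisons passed, with log2 fold changes of -1.04 on UIRI d3, -1.55 on UIRI d7 and -1.02 in UIRI+Nx d7. Slc10a2, the apical bile acid carrier ASBT (ENSMUSG00000023073, chr8:5083219-5105351, minus strand), measured 18.8 to 94.2 CPM in Control (median 42.1) and 11.7 to 29.9 in UIRI d3 (median 25.2). Levels on day 7 were 15.4 to 54.9 CPM in UIRI d7 (median 27.3) and 5.82 to 31.5 in UIRI+Nx d7 (median 10.1). It passed in UIRI+Nx d7 alone, at -1.75 (SE 0.40, adjusted p = 0.00122), beside -0.98 (SE 0.39, adjusted p = 0.0543) on UIRI d3 and -0.64 (SE 0.39, adjusted p = 0.201) on UIRI d7.

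Of the acid-base carriers, Slc4a4, which is NBCe1, the basolateral bicarbonate exit of the early tubule (ENSMUSG00000060961, chr5:88886818-89239653, plus strand), measured 733 to 1327 CPM in Control (median 942) and 414 to 689 in UIRI d3 (median 544). By day 7 it measured 330.2 to 509.8 CPM in UIRI d7 (median 363) and 365 to 773 in UIRI+Nx d7 (median 620.1). It was lower on UIRI d3 at -0.83 (SE 0.20, adjusted p = 0.00215), on UIRI d7 at -1.34 (SE 0.20, adjusted p = 6.88e-06) and in UIRI+Nx d7 at -0.70 (SE 0.20, adjusted p = 0.00814), the last being -0.45 with an adjusted p of 0.092 with total counts as the scale. Slc9a3 measured 0.565 to 1.40 CPM in Control (median 0.918) and 0 to 0.510 in UIRI d3 (median 0.247). Day 7 levels were 0.173 to 0.691 CPM in UIRI d7 (median 0.357) and 0.166 to 1.02 in UIRI+Nx d7 (median 0.343). These are too few reads for the filter, and no test was made in the first cohort. In the second cohort, where it was tested, its 3 comparisons gave adjusted p of 0.654, 0.982 and 0.669.

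By segment, the early carriers held more falls on UIRI d7 than on UIRI d3 or in UIRI+Nx d7, and the straight carriers held 5 or 6 in each. On UIRI d3, 3 of 7 early carriers were lower at a median log2 fold change of -0.57, and 5 of 8 straight carriers at a median of -1.16. On UIRI d7, 6 of 7 early carriers were lower at a median of -1.16, and 5 of 8 straight carriers at a median of -1.21. In UIRI+Nx d7, 2 of 7 early carriers were below Control at a median of -0.34, and 6 of 8 straight carriers at a median of -1.12. Of all genes tested, 14.9%, 18.1% and 14% were lower in these comparisons. The difference between the segment groups was not tested, and medians of 7 and 8 genes rest on few values.

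The summed level of the 7 early carriers was 2253 ± 143 CPM in Control (SD, n = 6), 1349 ± 162 in UIRI d3, 927 ± 192 in UIRI d7 and 1603 ± 293 in UIRI+Nx d7. The 8 straight carriers summed to 1536 ± 201 CPM in Control, 820.2 ± 192 in UIRI d3, 718 ± 147 in UIRI d7 and 709 ± 144 in UIRI+Nx d7. Between UIRI d7 and UIRI+Nx d7 the early mean was higher with nephrectomy and the straight mean nearly the same. For the second cohort the early carriers summed to 1412 ± 124 CPM in UIRI d3, 939 ± 151 in UIRI d7 and 1471 ± 208 in UIRI+Nx d7 (n = 4), and the straight carriers to 873 ± 102, 846 ± 69.2 and 947 ± 91.6. Genes with high levels weigh most in these sums, Slc4a4 among the early and Slc6a18 among the straight carriers. Mean Slc6a18 alone was 527 CPM in UIRI d7 and 660 in UIRI+Nx d7 of the second cohort. There Slc4a4, Slc5a12 and Slc6a19 were called higher with nephrectomy, while mean Slc5a2 was 152 and 123 CPM. The sums thus do not show that each carrier of a segment moved. By membrane, 16 of 21 tested apical carriers and 6 of 8 basolateral carriers were lower on UIRI d7, and 15 of 21 and 3 of 8 in UIRI+Nx d7, at medians of -1.02 and -0.13. Over all genes 18.1% were lower on UIRI d7 and 14% in UIRI+Nx d7.

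**Figure D2:**
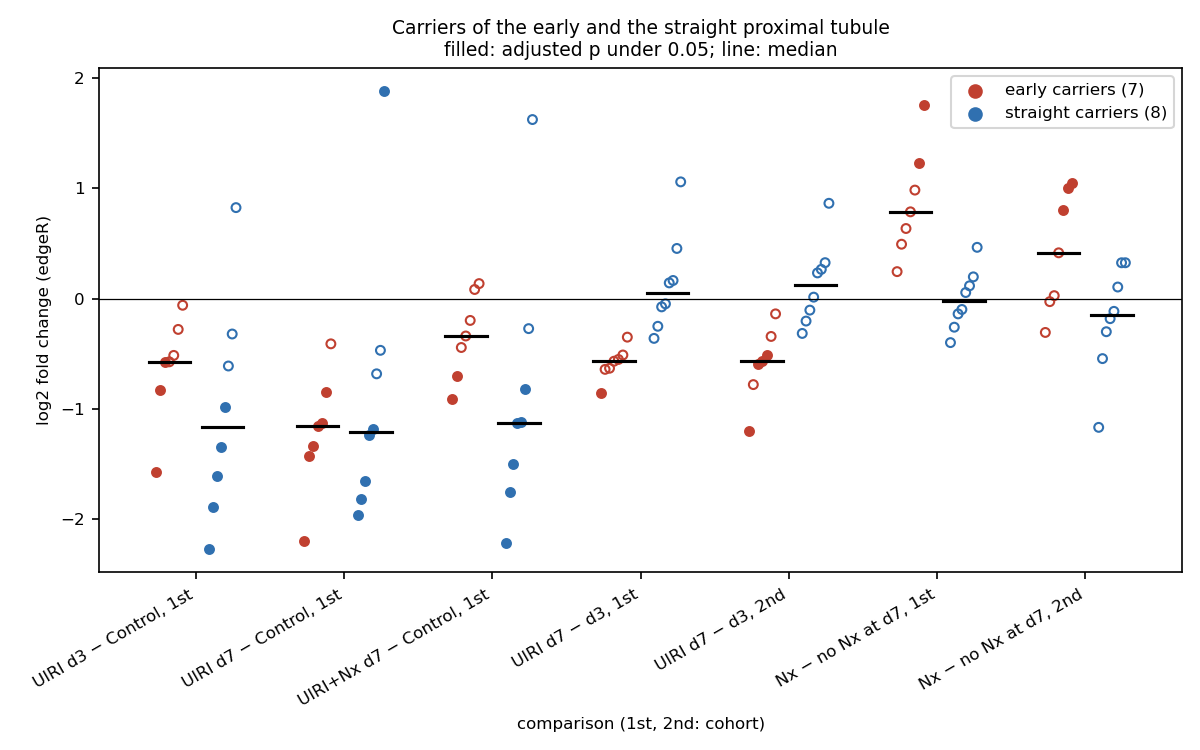
Log2 fold changes of the 7 early carriers (red) and the 8 straight carriers (blue) in 7 comparisons, each point 1 gene, filled where the adjusted p was under 0.05, with the median as a line. The early median was 0.79 and the straight median -0.02 in the first cohort's nephrectomy comparison, and 0.41 and -0.15 in the second's.

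UIRI+Nx d7 was set against UIRI d7 to ask how the injured kidney differed once its partner had been taken out. Among first-cohort kidneys 4 of 34 tested carriers were higher with nephrectomy and 0 lower, where 3.17% of all genes were higher and 3.46% lower, with 11 carriers at an unadjusted p under 0.05 in either direction. Among second-cohort kidneys 5 of 34 were higher and 3 lower, where 2.58% and 2.66% of all 15543 genes tested were. Leaving out 1 library moved these counts over all genes by more than 1.5 times. For the second cohort, 413 lower and 401 higher became 148 and 180 of 15789 tested without UIRI+Nx d7 replicate 2, and 262 and 283 without UIRI d7 replicate 4. First-cohort counts of 543 lower and 497 higher became 357 and 396 without UIRI+Nx d7 replicate 2 and 353 and 342 without UIRI d7 replicate 3. Scaling by total counts alone turned the split over all genes from 543 lower and 497 higher to 783 and 334 in the first cohort, and from 413 and 401 to 596 and 271 in the second, and left the counts of carriers within 1.5 times. The median log2 fold changes were 0.37 and 0.01, beside -0.01 and 0.00 over all genes. Slc43a2, Slc5a12 and Slc6a19 were higher in both cohorts, which is 3 of the 4 called in the first and 3 of the 5 called in the second. By segment, 2 of 7 early carriers were higher in the first cohort and 3 of 7 in the second, and 0 of 8 straight carriers in either. By membrane, 2 of 21 apical and 2 of 8 basolateral carriers were higher in the first. The cohorts share no libraries, and 20 of the 33 carriers tested in both (60.6%) had the same sign, beside 59.2% of all genes.

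Slc6a19 had the largest rise of the carriers in the first cohort, from a median of 80.5 CPM (52.1 to 161) in UIRI d7 to a median of 299 CPM (148 to 595) in UIRI+Nx d7, a log2 fold change of 1.75 (SE 0.31, adjusted p = 0.000921). Second-cohort levels were 82.2 to 142 CPM in UIRI d3 (median 111), 44.2 to 96.9 in UIRI d7 (median 74.0) and 127, 160.3, 95.4 and 121 in UIRI+Nx d7. This was a rise of 0.80 (SE 0.19, adjusted p = 0.016). The groups overlapped in both cohorts, and the second call was lost without UIRI+Nx d7 replicate 2, at an adjusted p of 0.0924. Slc5a12 rose from a median of 45.8 CPM (33.0 to 57.6) in UIRI d7 to a median of 95.5 CPM (82.2 to 149) in UIRI+Nx d7 in the first cohort, with no overlap, at 1.23 (SE 0.20, adjusted p = 0.000339). The second cohort held 64.7 to 187 CPM in UIRI d3 (median 105), 33.1 to 67.0 in UIRI d7 (median 51.6) and 126, 110.0, 94.5 and 80.0 in UIRI+Nx d7. Again UIRI+Nx d7 and UIRI d7 did not overlap, at 1.05 (SE 0.26, adjusted p = 0.0245). That call held in 6 of 10 fits with 1 library left out and was lost without UIRI+Nx d7 replicates 1 or 2, or UIRI d7 replicates 3 or 4 (adjusted p up to 0.0809). Slc43a2 rose from a median of 81.3 CPM (53.2 to 113) in UIRI d7 to a median of 201 CPM (87.1 to 245) in UIRI+Nx d7 in the first cohort, at 1.16 (SE 0.24, adjusted p = 0.00409). The second cohort held 78.3 to 134 CPM in UIRI d3 (median 82.4), 41.5 to 101 in UIRI d7 (median 77.5) and 166, 308, 149.7 and 299 in UIRI+Nx d7. All 4 UIRI+Nx d7 libraries were above all UIRI d7 and UIRI d3 libraries, at 1.62 (SE 0.23, adjusted p = 0.000392).

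Slc13a3 rose in the first cohort from a median of 193 CPM (159 to 343) in UIRI d7 to a median of 562 CPM (284 to 704) in UIRI+Nx d7, at 1.19 (SE 0.22, adjusted p = 0.00157). The second cohort held 271 to 742 CPM in UIRI d3 (median 331), 229.7 to 594 in UIRI d7 (median 360.2) and 334, 842, 389 and 912 in UIRI+Nx d7. Of the 4 nephrectomy libraries 2 were above every other library and 2 within the range of UIRI d7, and the value of 0.68 (SE 0.33, adjusted p = 0.268) did not pass. Slc4a4, the bicarbonate exit, missed the threshold in the first cohort at 0.63 (SE 0.20, adjusted p = 0.0576) and passed in the second. There it measured 492.95 to 629.6 CPM in UIRI d3 (median 587), 294 to 540.3 in UIRI d7 (median 388) and 966, 964, 557 and 756 in UIRI+Nx d7, without overlap of the day 7 groups, at 1.0 (SE 0.17, adjusted p = 0.002). Slc16a9 measured 25.6 to 39.5 CPM in UIRI d3 (median 30.4), 19.7 to 30.9 in UIRI d7 (median 23.3) and 62.1, 48.3, 33.7 and 33.8 in UIRI+Nx d7 of the second cohort. It was higher at 0.88 (SE 0.18, adjusted p = 0.0065), with no overlap, beside 0.34 (SE 0.17, adjusted p = 0.279) in the first. Slc7a7 and Slc7a9, a basolateral and an apical amino acid light chain, came near the threshold in the first cohort at 0.98 (SE 0.32, adjusted p = 0.0629) and 0.79 (SE 0.26, adjusted p = 0.0702), and measured -0.03 and 0.03 in the second. With DESeq2 in place of edgeR, Slc4a4, Slc7a7 and Slc7a9 joined the 4 higher carriers of the first cohort and Slc10a2 was lower, which makes 7 higher and 1 lower. The library block as a covariate gave 7 higher and 1 lower. Within block 1a, which holds 3 libraries of each group, 0 carriers and 0 genes at all passed with edgeR. There Slc6a19 had a log2 fold change of 2.04 with an adjusted p of 0.21 and Slc5a12 1.38 with an adjusted p of 0.175. In the second cohort 0 carriers passed within either block, and Slc43a2 gave 1.64 with an adjusted p of 0.223 in block 2a, with 2 libraries of each group, and 1.56 with an adjusted p of 0.147 in block 2c.

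**Figure D3:**
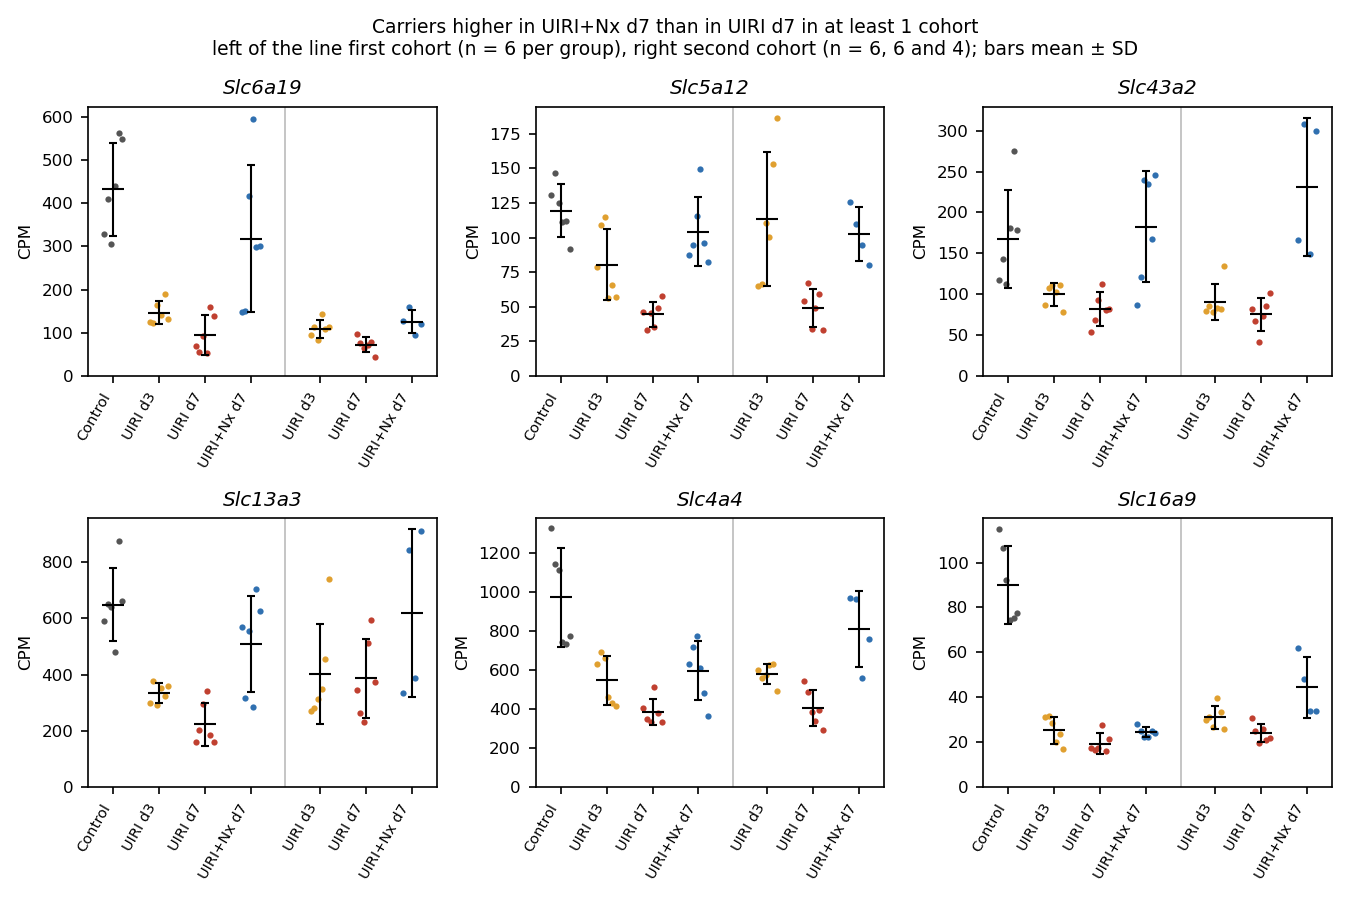
Levels (CPM) of 6 carriers in every library (points), by group, with the mean and SD as bars, the first cohort left of the grey line (n = 6 per group) and the second right of it (n = 6, 6 and 4). Slc5a12 and Slc43a2 of the second cohort show all UIRI+Nx d7 libraries above all UIRI d7 libraries.

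Carriers of urate and bile acids did not share the rise. Slc10a2 fell with nephrectomy in the second cohort, where it measured 13.5 to 26.7 CPM in UIRI d3 (median 23.0), 11.6 to 37.0 in UIRI d7 (median 30.5) and 15.0, 8.70, 14.3 and 10.2 in UIRI+Nx d7. The log2 fold change was -1.23 (SE 0.26, adjusted p = 0.00861). First-cohort medians were 27.3 CPM in UIRI d7 and 10.1 CPM in UIRI+Nx d7, with overlapping groups, at -1.11 (SE 0.40, adjusted p = 0.0936) by edgeR and -1.12 with an adjusted p of 0.0399 by DESeq2. Slc17a3 measured 87.6 to 134 CPM in UIRI d3 (median 112), 48.7 to 123 in UIRI d7 (median 99.6) and 51.0, 37.6, 60.3 and 46.7 in UIRI+Nx d7 of the second cohort. It fell at -0.96 (SE 0.21, adjusted p = 0.0096), a call lost without UIRI+Nx d7 replicate 2 at an adjusted p of 0.054. Slc17a1 measured 233 to 300.1 CPM in UIRI d3 (median 259), 162 to 299 in UIRI d7 (median 254) and 146, 109, 172 and 142 in UIRI+Nx d7. It fell at -0.78 (SE 0.16, adjusted p = 0.00663). The same neighbours of the first cohort gave -0.05 (SE 0.42, adjusted p = 0.962) and 0.26 (SE 0.26, adjusted p = 0.649), with wide and overlapping groups. The straight carriers held 0 calls with nephrectomy in either cohort by edgeR or DESeq2, at medians of -0.02 and -0.15. SGLT2 (Slc5a2) measured 0.24 (SE 0.25, adjusted p = 0.65) in the first cohort and -0.31 (SE 0.15, adjusted p = 0.295) in the second. Its second-cohort libraries held 175 to 261 CPM in UIRI d3 (median 230.1), 112 to 180.2 in UIRI d7 (median 155) and 94.0, 124, 120.0 and 153 in UIRI+Nx d7.

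**Figure D4:**
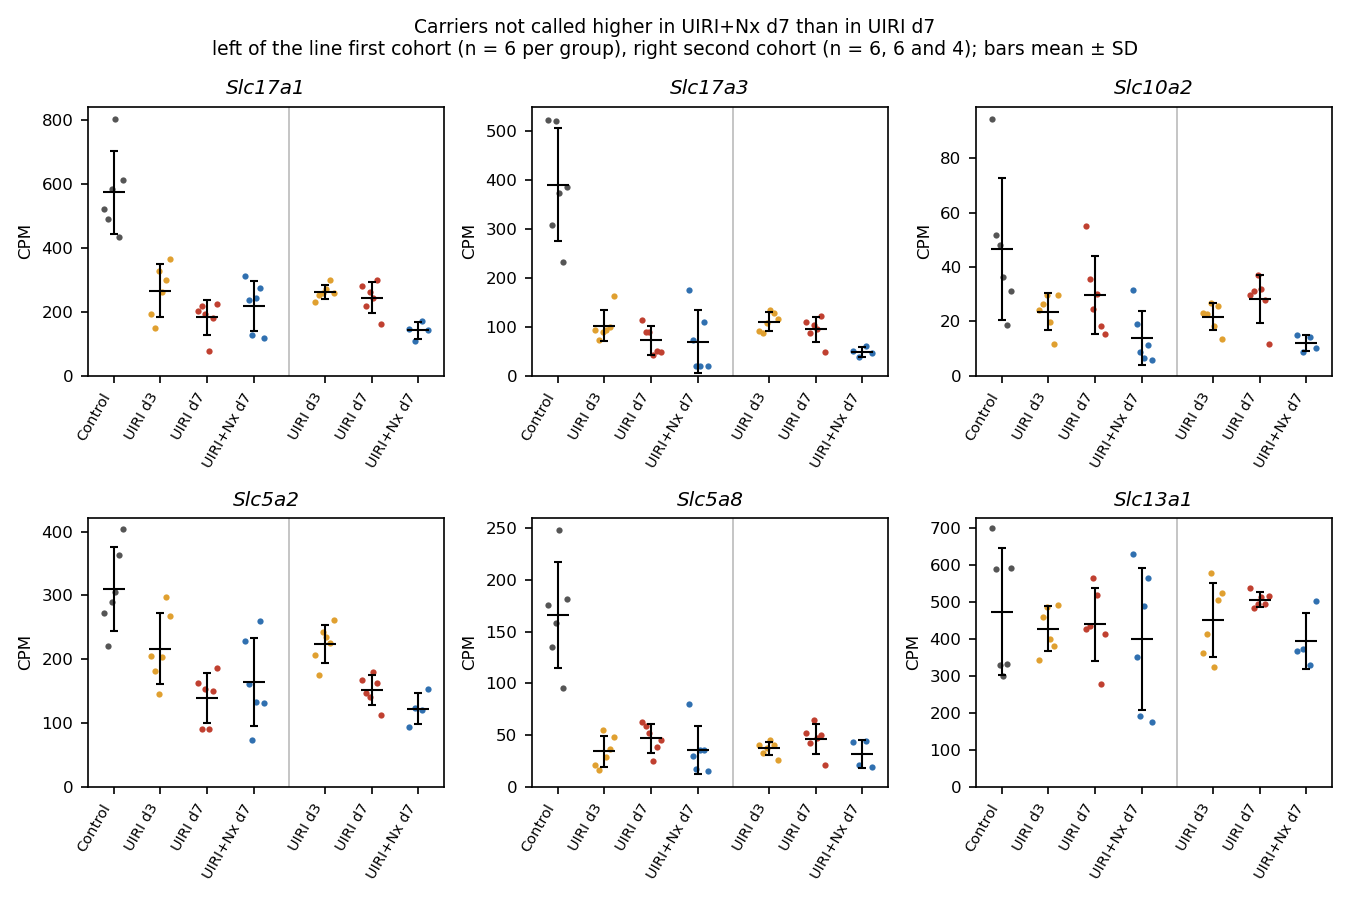
Levels (CPM) in every library of 6 carriers that were not called higher with nephrectomy, by group, with the mean and SD as bars, the first cohort left of the grey line and the second right of it. Slc17a1, Slc17a3 and Slc10a2 have lower means in UIRI+Nx d7 than in UIRI d7 of the second cohort.

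None of these nephrectomy effects was shown to differ between the cohorts. In a joint edgeR fit of 16606 genes, 0 carriers and 0% of all genes passed the test of the difference in nephrectomy effect, with 7 carriers at an unadjusted p under 0.05. DESeq2 called 0 carriers, and 3 lower and 1 higher over all genes. The smallest edgeR p among the carriers belonged to Slc17a1, whose second-minus-first difference was -1.03 on the log2 scale (SE 0.34, unadjusted p = 0.00406). For Slc6a19 the difference was -0.94 with a 95% interval of -1.74 to -0.14 before adjustment. Of 5 distal convoluted and connecting tubule genes, 2 were higher with nephrectomy in each cohort, where 3.17% and 2.58% of all genes were. These 5 genes summed to 716 to 1027 CPM in UIRI d7 and 1759 to 2389 CPM in UIRI+Nx d7 of the first. Summed leukocyte genes were 1237 to 3017 CPM and 923 to 1905 CPM in these groups, with 2 of 7 tested lower beside 3.46% of all genes. Mitochondrial genes took 2.27 to 3.85% and 3.36 to 5.66% of counts. Their part in the carrier results was not tested.

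**Figure D5:**
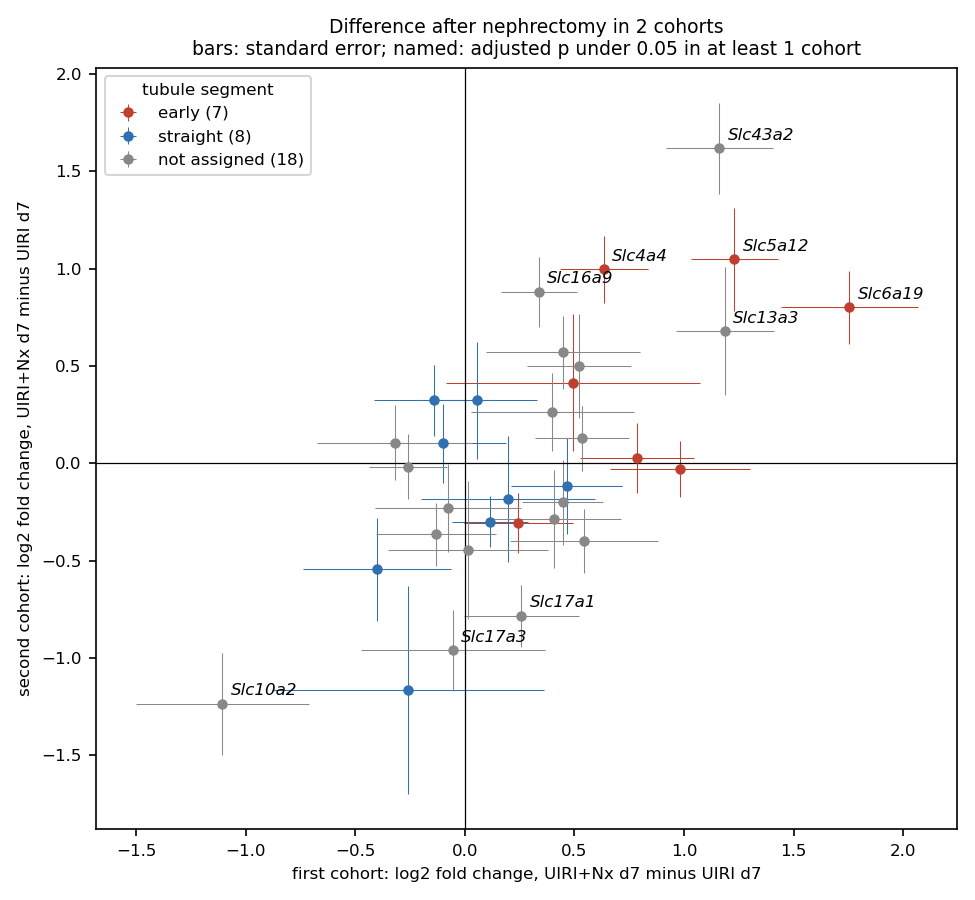
Log2 fold change of UIRI+Nx d7 against UIRI d7 in the first cohort (x axis) and in the second (y axis). Each point is 1 carrier tested in both, coloured by tubule segment (early red, straight blue, not assigned grey). Slc43a2, Slc5a12 and Slc6a19 lie to the upper right, called in both, and 20 of 33 points have the same sign on both axes.

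The other proximal tubule carriers moved both ways with nephrectomy, 4 of 26 higher and 2 lower in the first cohort and 2 higher and 3 lower in the second. Over all genes 3.17% were higher and 3.46% lower in the first, and 2.58% and 2.66% in the second. Slc38a3, which is SNAT3, the basolateral glutamine carrier of ammonia production, was higher at 2.41 (SE 0.42, adjusted p = 0.000811) in the first cohort and 2.75 (SE 0.29, adjusted p = 1.7e-05) in the second. Slc37a4, the glucose-6-phosphate carrier of the endoplasmic reticulum, was higher in the first at 1.18 (SE 0.14, adjusted p = 1.49e-05), and Slc2a2, which is GLUT2, the basolateral glucose exit, at 0.81 (SE 0.19, adjusted p = 0.00954). Slco1a1, an organic anion transporter, was lower in both at -2.34 (SE 0.57, adjusted p = 0.0124) and -1.25 (SE 0.28, adjusted p = 0.0127), and Slc7a13, an acidic amino acid and cystine light chain of the straight tubule, was lower in the second at -3.67 (SE 0.41, adjusted p = 3.11e-05). Not every called gene of this list is named here, and the other cohort's values of Slc37a4, Slc2a2 and Slc7a13 are not given.

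Promoter windows of RefSeq (GRCm38.p6, 250 bases before to 50 after a transcript start) were found for 27 of the 35 carriers. They were searched on both strands for the palindromic motif of HNF1, GTTAATNATTAAC with up to 2 mismatches, and for the HNF4 motif CAAAGTCCA with up to 1 mismatch, both being motifs of transcription factors that drive proximal tubule genes. The HNF1 motif was matched in 13.95% of the 43 carrier windows and in 1.358% of 32851 windows of all genes, and the HNF4 motif in 20.93% and 8.472%. The carriers with an HNF1 match were Slc10a2, Slc13a2, Slc17a1, Slc6a13 and Slc7a9, the last with a single site that lies in both of its overlapping windows. Those with an HNF4 match were Slc13a3, Slc16a4, Slc17a1, Slc3a1, Slc5a11, Slc5a8, Slc7a7 and Slc7a9. Windows of 3 carriers with opposite nephrectomy values in the second cohort are shown, Slc10a2 (chr8:5105238-5105537, minus strand) and Slc17a1 (chr13:23870023-23870322, plus strand, the downstream of its windows), both lower, and Slc6a19 (chr13:73692587-73692886, minus strand, at a transcript start inside the gene span given above), higher. Capitals mark the HNF1 matches, and the Slc6a19 window holds no match of either motif. These windows were chosen by hand, and whether a match goes with the direction of change was not tested. Slc13a2, Slc6a13 and Slc7a9 have an HNF1 match and were not called with nephrectomy in the second cohort. Slc17a3, lower there, is not among the carriers with an HNF1 match. For 8 of the 35 carriers no window was found, so absence from the match lists can mean that none was searched.
Slc10a2: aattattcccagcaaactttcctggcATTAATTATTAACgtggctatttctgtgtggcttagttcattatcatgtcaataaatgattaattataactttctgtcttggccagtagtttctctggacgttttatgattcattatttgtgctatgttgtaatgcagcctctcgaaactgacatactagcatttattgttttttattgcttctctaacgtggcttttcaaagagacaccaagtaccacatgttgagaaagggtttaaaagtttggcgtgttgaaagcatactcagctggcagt
Slc17a1: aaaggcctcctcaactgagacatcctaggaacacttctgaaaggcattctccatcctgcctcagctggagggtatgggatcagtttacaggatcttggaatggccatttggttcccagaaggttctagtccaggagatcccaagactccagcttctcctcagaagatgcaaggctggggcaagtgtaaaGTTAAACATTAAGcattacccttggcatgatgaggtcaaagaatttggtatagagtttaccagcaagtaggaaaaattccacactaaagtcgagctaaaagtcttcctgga
Slc6a19: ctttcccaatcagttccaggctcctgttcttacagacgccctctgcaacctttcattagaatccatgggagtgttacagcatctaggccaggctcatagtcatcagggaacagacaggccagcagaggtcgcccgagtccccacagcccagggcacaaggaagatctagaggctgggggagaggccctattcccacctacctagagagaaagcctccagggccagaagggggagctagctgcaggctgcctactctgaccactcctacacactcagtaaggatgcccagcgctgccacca
A match describes these letters alone, and binding of either factor was not measured here.

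From day 3 to day 7 without nephrectomy, the early carriers held all the falls that passed with edgeR. In the first cohort 1 of 34 tested carriers, Slc5a12, was lower on UIRI d7 than on UIRI d3 and 0 were higher, where 1.36% of all genes were lower and 1.24% higher. Its fall of -0.85 (SE 0.20, adjusted p = 0.0163) held in 11 of 12 fits with 1 library left out and was lost without UIRI d7 replicate 2 (adjusted p = 0.0505). It was -0.86 with an adjusted p of 0.0579 in a fit of the 2 groups alone and -0.74 with an adjusted p of 0.0502 with total counts as the scale. In all, 10 carriers had an unadjusted p under 0.05, and DESeq2 called 2 lower and 0 higher. In the second cohort 4 were lower, all of them early carriers, and 2 higher, where 4.05% and 4.51% of all genes were. They were Slc5a12 at -1.20 (SE 0.24, adjusted p = 0.00397), Slc6a19 at -0.59 (SE 0.17, adjusted p = 0.0341), Slc5a2 at -0.56 (SE 0.14, adjusted p = 0.014) and Slc4a4 at -0.51 (SE 0.16, adjusted p = 0.0473). DESeq2 also called Slc3a2 and Slc47a1, which are not early carriers, lower. The Slc6a19 call held in 6 of 12 fits with 1 library left out and was lost without UIRI d7 replicates 3, 4 or 6, or UIRI d3 replicates 2, 4 or 5 (adjusted p up to 0.0783). The Slc4a4 call held in 3 of 12 fits with 1 library left out and was lost without UIRI d7 replicates 3, 4, 5 or 6, or UIRI d3 replicates 1, 2, 3, 4 or 5 (adjusted p up to 0.112). With total counts as the scale they were -0.57 with an adjusted p of 0.0556 and -0.48 with an adjusted p of 0.077, and Slc4a4 was -0.53 with an adjusted p of 0.0579 with no filter and -0.50 with an adjusted p of 0.0529 when genes needed at least 5 CPM. With the library block as a covariate Slc4a4 was -0.17 with an adjusted p of 0.642, so its call held under 4 of 8 other planned settings. All 7 early carriers had negative values in both cohorts, at medians of -0.57 and -0.56, and the straight carriers had medians of 0.05 and 0.12. Other measures moved over the same days. Leukocyte genes of the second cohort summed to 690.0 to 1128 CPM in UIRI d3 and 1589 to 3109 CPM in UIRI d7, with 5 of 7 tested higher. Cycling genes there summed to 307 to 383 CPM and 123 to 160.2 CPM, with 5 of 5 lower. Mitochondrial genes took 3.56 to 5.41% and 2.40 to 3.40% of counts there. In the first cohort leukocyte sums were 411 to 802 and 1237 to 3017 CPM (5 of 7 tested higher), cycling sums 295 to 469 and 102 to 178 CPM (4 of 5 lower), and mitochondrial shares 3.28 to 5.27% and 2.27 to 3.85%. Their part in the values of the early carriers was not tested. The counts over all genes also moved by more than 1.5 times with 1 library left out. In the first cohort 214 lower and 195 higher became 137 and 126 without UIRI d7 replicate 2, 128 and 119 without UIRI d7 replicate 3 and 164 and 114 without UIRI d3 replicate 4. In the second 629 and 701 became 481 and 462 without UIRI d3 replicate 5 and 457 and 466 without UIRI d3 replicate 2. Across the cohorts, which share no libraries, 29 of the 33 carriers tested in both had the same sign (87.9%), beside 69.5% of all genes.

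The higher carriers of the second cohort were Slc5a10, the mannose carrier, and Slc13a2, the citrate carrier. Slc5a10 measured 44.0 to 69.7 CPM in UIRI d3 (median 48.7), 72.5 to 139 in UIRI d7 (median 97.9) and 85.7, 87.2, 116 and 140.1 in UIRI+Nx d7. All UIRI d3 libraries were below the others, at 0.93 (SE 0.18, adjusted p = 0.00219). Slc13a2 measured 33.6 to 49.4 CPM in UIRI d3 (median 39.3), 50.4 to 107 in UIRI d7 (median 65.1) and 75.2, 127, 94.3 and 117 in UIRI+Nx d7. Here too UIRI d3 lay below the others, at 0.78 (SE 0.17, adjusted p = 0.00725). UIRI d3 of the second cohort has no library in block 2c, and with the library block as a covariate 0 carriers were lower and Slc13a2 alone was higher, at 0.95 with an adjusted p of 0.0124. In block 2a, which holds 6 UIRI d3 and 2 UIRI d7 libraries, Slc5a12 measured -0.92 with an adjusted p of 0.289. The joint fit called 0 carriers and 0% of all genes for a difference between cohorts in the change from day 3 to day 7, with 0 carriers at an unadjusted p under 0.05 and 0 by DESeq2.

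UIRI+Nx d7 was also set against UIRI d3, in the first cohort the day on which the uninjured kidney was removed. These values share the UIRI d3 libraries with the change over time and the UIRI+Nx d7 libraries with the nephrectomy comparison. In the first cohort 2 of 34 carriers were higher and 0 lower, where 2.06% and 3.06% of all genes were, with 4 carriers at an unadjusted p under 0.05 and 0 lower by DESeq2. Slc6a19 gave 1.12 (SE 0.31, adjusted p = 0.0291). It held in 6 of 12 fits with 1 library left out and was lost without UIRI+Nx d7 replicates 3 or 4, or UIRI d3 replicates 1, 2, 4 or 6 (adjusted p up to 0.118). Slc43a2 gave 0.87 (SE 0.24, adjusted p = 0.0321), and held in 5 of 12 fits with 1 library left out and was lost without UIRI+Nx d7 replicates 3, 4 or 6, or UIRI d3 replicates 1, 2, 4 or 6 (adjusted p up to 0.0921). The second cohort had 3 carriers higher and 3 lower, where 2.97% and 3.04% of all genes were. Slc43a2 at 1.36 (SE 0.23, adjusted p = 0.00117), Slc13a2 at 1.35 (SE 0.19, adjusted p = 0.00018) and Slc5a10 at 1.04 (SE 0.19, adjusted p = 0.00228) were higher. Slc17a3 at -1.18 (SE 0.21, adjusted p = 0.00145), Slc17a1 at -0.88 (SE 0.16, adjusted p = 0.00195) and Slc5a2 at -0.87 (SE 0.16, adjusted p = 0.00184) were lower, and none of these 6 had UIRI+Nx d7 libraries within the range of UIRI d3. Over all genes of the second cohort, 473 lower and 462 higher became 284 and 270 without UIRI+Nx d7 replicate 2 and 319 and 296 without replicate 4, and in the first cohort 481 and 324 became 317 and 208 without UIRI+Nx d7 replicate 3 and 315 and 209 without replicate 4. The urate carriers and SGLT2 were thus below their day 3 range, and LAT4, the citrate carrier and the mannose carrier above it.

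Libraries of a group varied most in UIRI+Nx d7 of either cohort. The median coefficient of variation over the 35 carriers was 27.8% in Control, 30% in UIRI d3, 38.3% in UIRI d7 and 41.9% in UIRI+Nx d7 of the first cohort. In the second it was 20.8%, 25.7% and 29.7% for UIRI d3, UIRI d7 and UIRI+Nx d7. Slc7a8 and Slc3a2, the LAT2 exchanger and its heavy chain, and Slc5a1 and Slc6a6 were among those whose groups overlapped in every comparison with Control.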

How the data were processed

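RNA of 40 kidney sections in named groups was sequenced with QuantSeq 3' FWD, which reads 1 tag near the end of each transcript, from 500 ng of RNA per the labels. The authors deposited raw counts per gene. First-cohort reads were processed with Trimmomatic, STAR and HTSeq 0.6.1 on GRCm38, and second-cohort reads with STAR 2.7.11b on GRCm39, per the submitters' processing notes, so levels were not compared between cohorts. Not given in the sources used here are the strand setting, the annotation release and, for the second cohort, the counter. Library groups came from the sample titles, and 1 further library, titled as undetermined and without a group, entered no comparison.

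Counts were analysed as deposited with edgeR 4.0.16 in R 4.3.3 (TMM scaling, filterByExpr, quasi-likelihood F test, Benjamini-Hochberg adjustment over all genes tested, threshold 0.05), with all groups of a cohort in 1 fit and both cohorts in a joint fit for differences between them. Intervals of 95% are from the same fit, before adjustment. The procedure was tested on simulated data. The alternatives were RLE or total-count scaling, DESeq2 1.42.0, no filter or at least 5 CPM, only the 2 groups compared, a replicate block, library blocks read from the library numbers, and leaving out each library; fits within 1 library block were added after seeing the data. Deviations of same-numbered libraries correlated from -0.424 to 0.447. In the second-cohort nephrectomy comparison all 4 pairs were positive (0.123, 0.0923, 0.168 and 0.219), where replicates 1 and 2 share library block 2a and 3 and 4 share 2c in both groups. In no comparison was every pair over 0.1, so the numbers were not used as pairs. All 35 carriers could be named, the called ones by size of change, and genes outside the 35 only from the partner, carrier and marker lists; Slc17a1, Slc7a7 and Slc10a2 in the nephrectomy comparison were named beyond that order. The members and lists were chosen with earlier results of these data known.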

Additional observations from a re-analysis of the deposited data

Results flagged for a closer look

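In 20 of 245 tests of a carrier in a group, the highest or lowest library stood farther from the next than Dixon's 95% critical value allows, where chance gives about 5%. In UIRI+Nx d7 of the first cohort, replicate 1 was far above the others for 4 straight carriers. It measured 173 CPM beside a next value of 76.7 for the glucose carrier Slc5a1, 169 CPM beside a next value of 88.8 for the fructose carrier Slc2a5, 80.3 CPM beside a next value of 35.5 for the lactate carrier Slc5a8 and 11.6 CPM beside a next value of 3.73 for Slc7a12. In UIRI d7 of the second cohort, replicate 6 was far below the others for 3 apical carriers, at 11.6 CPM beside a next value of 27.8 for the bile acid carrier Slc10a2, 21.0 CPM beside a next value of 39.3 for the imino acid carrier Slc6a20b and 41.2 CPM beside a next value of 57.7 for the cystine light chain Slc7a9. Control replicate 5 was highest for Slc2a5, at 373 CPM beside a next value of 241, and for the inositol carrier Slc5a11, at 98.9 CPM beside a next value of 68.1.

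Replicate 6 of UIRI d3 in the second cohort was highest for Slc26a1 at 184 CPM beside a next value of 119 and for Slc43a2 at 134 CPM beside a next value of 84.9. In the first cohort, UIRI d3 replicate 6 was highest for Slc17a3 at 164 CPM beside a next value of 99.7, replicate 3 for Slc5a10 at 155 CPM beside a next value of 61.4 and replicate 2 for Slc5a11 at 45.6 CPM beside a next value of 35.3, while UIRI d7 replicate 4 was lowest for Slc17a1 at 76.8 CPM beside a next value of 182. In the second cohort, UIRI d7 replicate 1 was highest for Slc13a2 at 107 CPM beside a next value of 67.1, and UIRI+Nx d7 replicate 2 was lowest for Slc3a1 at 43.2 CPM beside a next value of 73.3. Slc6a12, at low levels throughout, was highest in Control replicate 3 at 2.03 CPM beside a next value of 1.11, in UIRI d3 replicate 3 of the second cohort at 1.26 CPM beside a next value of 0.470 and in UIRI d7 replicate 4 of the second cohort at 0.703 CPM beside a next value of 0.187. The library without a group held counts for all 35 carriers, which took 0.538% of its counts (67024 of 12446693, 95% Wilson interval 0.534 to 0.543%, counting error only).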

How the results depend on the processing

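No carrier called in a comparison changed direction under any setting run. Of the values of called carriers under planned settings other than leaving out a library, 725 kept their call and 30 lost it, and of those with 1 library left out 1030 kept it and 82 lost it. Within single library blocks 78 kept it and 67 lost it. The cause of a lost call was not tested, and fits within a block hold fewer libraries. With 1 library left out, the comparisons with Control gave 19 to 24 lower and 0 to 0 higher carriers on UIRI d3, 23 to 26 lower and 0 to 1 higher on UIRI d7 and 18 to 21 lower and 0 to 2 higher in UIRI+Nx d7. UIRI+Nx d7 against UIRI d7 gave 0 to 1 lower and 4 to 7 higher in the first cohort and 2 to 3 lower and 3 to 6 higher in the second, UIRI d7 against UIRI d3 gave 0 to 2 lower and 0 to 0 higher and 2 to 5 lower and 2 to 2 higher, and UIRI+Nx d7 against UIRI d3 gave 0 to 0 lower and 0 to 2 higher and 3 to 4 lower and 3 to 4 higher. The tests of a difference between cohorts gave 0 to 0 in either direction.

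Against Control, UIRI d7 had 0 higher carriers when genes needed at least 5 CPM. UIRI+Nx d7 had 2 higher with total counts only, 1 higher with DESeq2 and 3 higher within block 1a, and 3 lower within block 2b. For UIRI+Nx d7 against UIRI d7 in the first cohort, DESeq2 and the library block as a covariate each gave 7 higher and 1 lower, and within block 1a 0 were higher. In the second cohort 0 were higher and 0 lower within block 2a and within block 2c. For UIRI d7 against UIRI d3 in the first cohort, 0 were lower with total counts only, with only the 2 groups compared and within block 1a, and 2 were lower with DESeq2 and with the library block. In the second cohort 2 were lower with total counts only, 0 lower and 1 higher with the library block, and 0 lower and 1 higher within block 2a. For UIRI+Nx d7 against UIRI d3, the first cohort had 1 lower with the library block and 0 higher within block 1a or block 2b, and the second had 5 higher with the library block.

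Replicate numbers as a replicate block, which were not taken to pair the libraries, gave 7 higher and 1 lower carriers for UIRI+Nx d7 against UIRI d7 in the first cohort and 5 lower for UIRI+Nx d7 against UIRI d3 in the second, and kept the other counts within 1.5 times.

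Over all genes, lower and higher counts moved by over 1.5 times under these settings, apart from those with total counts or with 1 library left out already given. UIRI+Nx d7 against UIRI d7 had 543 and 497 in the first cohort, 315 and 271 with only those groups and 0 and 0 within block 1a, and in the second 413 and 401, 639 and 610 with DESeq2, 4 and 4 within block 2a and 9 and 7 within block 2c. UIRI d7 against UIRI d3 had 214 and 195 in the first, 371 and 343 with DESeq2, 141 and 274 with total counts and 0 and 0 within block 1a, and in the second 629 and 701, 198 and 151 with the library block and 180 and 133 within block 2a. UIRI+Nx d7 against UIRI d3 had 481 and 324 in the first, 678 and 651 within block 1a and 56 and 38 within block 2b, and in the second 473 and 462 and 186 and 153 within block 2a. Against Control the counts were 2339 and 2793 on UIRI d3 and 1094 and 1381 within block 2b, 2847 and 3371 on UIRI d7 and 1326 and 1907 within block 1a, and 2200 and 2709 in UIRI+Nx d7 and 235 and 445 within block 2b. With 1 library left out, lower and higher counts ranged over 353 to 590 and 342 to 508 in the first and 148 to 468 and 180 to 430 in the second cohort for UIRI+Nx d7 against UIRI d7, 128 to 239 and 114 to 197 in the first and 457 to 725 and 462 to 811 in the second for UIRI d7 against UIRI d3, and 315 to 548 and 208 to 366 in the first and 284 to 562 and 270 to 612 in the second for UIRI+Nx d7 against UIRI d3. Leaving out second-cohort UIRI d7 replicate 6 gave 1 gene for a difference between cohorts in the nephrectomy effect, where edgeR called 0 with all libraries. DESeq2 with all libraries called 3 lower and 1 higher for that difference.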
